A study of Mus musculus with 12 samples.

Results

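The genes described here are 9 members of the angiopoietin, angiopoietin-like and VEGF families: Angptl2, Angptl4, Angptl6, Angptl7, Angpt1, Vegfa, Vegfb, Vegfc and Vegfd. They were taken by symbol from a table of 55401 mouse genes measured by mRNA sequencing of bone marrow mesenchymal stem cells (MSCs). The members were selected on their response to TGF-β1 in these same libraries, with Angptl7 among the genes with the greatest loss, so TGF-β1 against untreated MSCs is given for them as a description without a test. FPKM values, fragments scaled by exon length and by the mapped total of the library, set the filter. A gene entered the tests where 3 or more of the 12 libraries had an FPKM of 1 or higher, and 12016 genes passed. Of the 9 members 8 passed, Angpt1 did not, and Angptl7 passed only through the untreated libraries.

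The MSCs were a purchased line from bone marrow of C57BL/6 mice, with no genetic change stated in the labels. There were 4 groups of 3 libraries: untreated MSCs, MSCs given TGF-β1 at 5 ng/mL, and MSCs given TGF-β1 together with the culture supernatant of either monocytic (M-MDSC) or granulocytic (G-MDSC) myeloid-derived suppressor cells. The suppressor cells were grown from C57BL/6 bone marrow with GM-CSF and IL-6 and sorted before their supernatant was collected. No group held MSCs with supernatant and without TGF-β1, and the labels do not say whether the 3 libraries of a group came from separate cultures. The labels give no time of treatment, and the study describes a day of exposure for its cultures with TGF-β1 and either supernatant, without stating it for the sequenced libraries. The p-values therefore measure the spread between libraries, which may be technical.

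VEGF ligands bind receptor tyrosine kinases on endothelial cells. Vegfa acts mainly through Kdr and Flt1, Vegfb through Flt1, and Vegfc and, in the mouse, Vegfd through Flt4 on lymphatic vessels, with neuropilins as coreceptors. Angpt1 keeps vessels stable through the receptor Tek. Angiopoietin-like proteins share the angiopoietin fold but do not bind Tek, and their known partners include integrins and lipoprotein lipase. Stromal cells such as MSCs secrete many of these ligands for neighbouring cells.

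The libraries held from 73977669 to 84565450 counts, and low counts were piled on multiples of 4. Of the MSC markers, Itgb1 (CD29) ranged from 247 to 394 FPKM and Cd44 from 38.5 to 65.3 FPKM over the 12 libraries, while Pecam1 (CD31) stayed under 0.218 FPKM and Kit (CD117) under 0.0118 FPKM. Ly6a (Sca-1) was at 241 to 251 FPKM in untreated MSCs, 12.99 to 18.8 with TGF-β1, 82.6 to 103 with M-MDSC supernatant and 63.3 to 69.2 with G-MDSC supernatant. The 11 hepatocyte markers summed to at most 0.0266 FPKM without supernatant, to 0.150, 0.249 and 71.9 FPKM in the 3 M-MDSC supernatant libraries, and to 78.1 to 85.7 FPKM with G-MDSC supernatant. The 8 kidney tubule markers summed to 28.9 to 30.5 FPKM in untreated MSCs, nearly all Aqp1, to 4.22 to 4.39 with TGF-β1, to 36.3 to 107 with M-MDSC supernatant and to 71.6 to 83.1 with G-MDSC supernatant. These markers moved with the supernatant groups, and their part in the results below was not tested. M-MDSC library 3 stood apart from libraries 1 and 2 of its group, in which the hepatocyte gene Alb had 0 counts. The 12 myeloid markers summed to 26.9 to 28.0 FPKM in untreated MSCs, 13.6 to 15.8 with TGF-β1 and 20.5 to 29.3 with either supernatant, mostly Cd14, with Elane and Mpo at 0 counts throughout. Lyz2, a lysozyme gene of myeloid cells, averaged 0.115 FPKM in untreated MSCs, 0.0572 with TGF-β1, 1.54 with M-MDSC and 1.87 with G-MDSC supernatant, while S100a9, also a myeloid gene, was at 0 in all libraries without supernatant, at 0.258, 0.490 and 0.980 FPKM with M-MDSC supernatant and at 0, 0 and 3.40 FPKM with G-MDSC supernatant. The 10 endothelial markers summed to 1.03 to 1.21 FPKM in untreated MSCs, 1.03 to 1.07 with TGF-β1, 0.956 to 1.31 with M-MDSC supernatant and 1.25 to 1.84 with G-MDSC supernatant, so that the G-MDSC libraries lay above those with TGF-β1 alone. The 6 adipocyte markers, mostly Fabp4, summed to 0.249 to 0.415 FPKM in untreated MSCs, 0.0438 to 0.0735 with TGF-β1, 0.0379 to 0.124 with M-MDSC supernatant and 0.123 to 0.142 with G-MDSC supernatant, with Adipoq at 0 in every group. The 4 myofibroblast markers summed to 2063 to 2292 FPKM in untreated MSCs, 3346 to 3452 with TGF-β1, 2674 to 2700 with M-MDSC supernatant and 2460 to 2668 with G-MDSC supernatant.

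Promoter windows, taken as the 250 bases before the RefSeq start of a gene (GRCm38.p6), were found for 7 of the 9 members, and not for Angptl4 and Angpt1. They are shown for Angptl7, the member with the greatest loss under TGF-β1, Vegfa, the most abundant member, and Vegfc, the member that rose further with M-MDSC supernatant. Capitals mark CAGAC or its reverse complement GTCTG, the SMAD box bound by the transcription factors downstream of the TGF-β receptor. The windows lie at chr4:148500463-148500712 on the minus strand for Angptl7, chr17:46032378-46032627 on the minus strand for Vegfa and chr8:54077282-54077531 on the plus strand for Vegfc.
Angptl7: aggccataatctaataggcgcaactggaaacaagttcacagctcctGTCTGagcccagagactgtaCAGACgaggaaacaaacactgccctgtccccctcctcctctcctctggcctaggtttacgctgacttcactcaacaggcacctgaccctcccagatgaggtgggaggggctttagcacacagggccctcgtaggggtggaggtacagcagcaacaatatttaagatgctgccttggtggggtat
Vegfa: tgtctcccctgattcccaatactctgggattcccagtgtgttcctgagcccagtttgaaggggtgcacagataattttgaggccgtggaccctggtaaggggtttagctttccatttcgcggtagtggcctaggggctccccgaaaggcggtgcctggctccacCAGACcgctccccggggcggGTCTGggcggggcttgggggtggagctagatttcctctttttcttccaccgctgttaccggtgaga
Vegfc: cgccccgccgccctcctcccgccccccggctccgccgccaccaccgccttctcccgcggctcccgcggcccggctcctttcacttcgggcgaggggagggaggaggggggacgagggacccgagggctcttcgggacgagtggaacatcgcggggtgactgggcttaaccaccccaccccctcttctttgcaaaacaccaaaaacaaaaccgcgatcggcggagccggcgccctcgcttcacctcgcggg
The SMAD box occurred 2 times in the Angptl7 window and 2 times in this Vegfa window, and was not found in the windows of Vegfc, Angptl2, Angptl6, Vegfb and Vegfd. Of all 32851 windows of this length 42.2% hold it on either strand. The AP-1 site TGANTCA, present in 6.75% of all windows, was found in no member's window. The hypoxia response core ACGTG, on either strand in 16.6% of all windows, was found once, in the window of another RefSeq start of Vegfa, which also held 1 SMAD box. A TATA box, TATAAA on either strand in 12.4% of all windows, was found in the Vegfd window, 144 bases of which GENCODE places inside the gene. The windows shown held none of the other motifs searched, so no motif overlapped another kind. Against a median GC content of 52.4% over all windows, Vegfb had 76.4%, Vegfc 71.6%, Angptl2 66.8%, Vegfa 59.2%, Angptl6 54.8%, Angptl7 54.4% and Vegfd 42.4%. A match describes the letters in the window and is not a binding site.

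In untreated MSCs the most abundant member per length was Vegfa, at 31.3 ± 0.663 FPKM (SD, n = 3). Vegfb at 25.8 ± 1.88, Vegfd at 23.5 ± 0.965 and Angptl2 at 23.0 ± 3.78 FPKM followed. The libraries of these 3 genes overlapped, so their order is within the spread. Angptl7 came next at 8.72 ± 0.193 FPKM, above every library of Angptl4 (5.53 ± 2.0) and of Vegfc (3.89 ± 0.318). Angptl4 and Vegfc overlapped in level. Angptl6, at 1.88 ± 0.419 FPKM, and Angpt1, at 0.480 ± 0.0681 FPKM, were the least abundant. In MSCs given TGF-β1 the order was Vegfa, Angptl2, Vegfb, Vegfc, Vegfd, Angptl6, Angptl4, Angpt1 and Angptl7, and only the last pair overlapped.

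**Figure D1:**
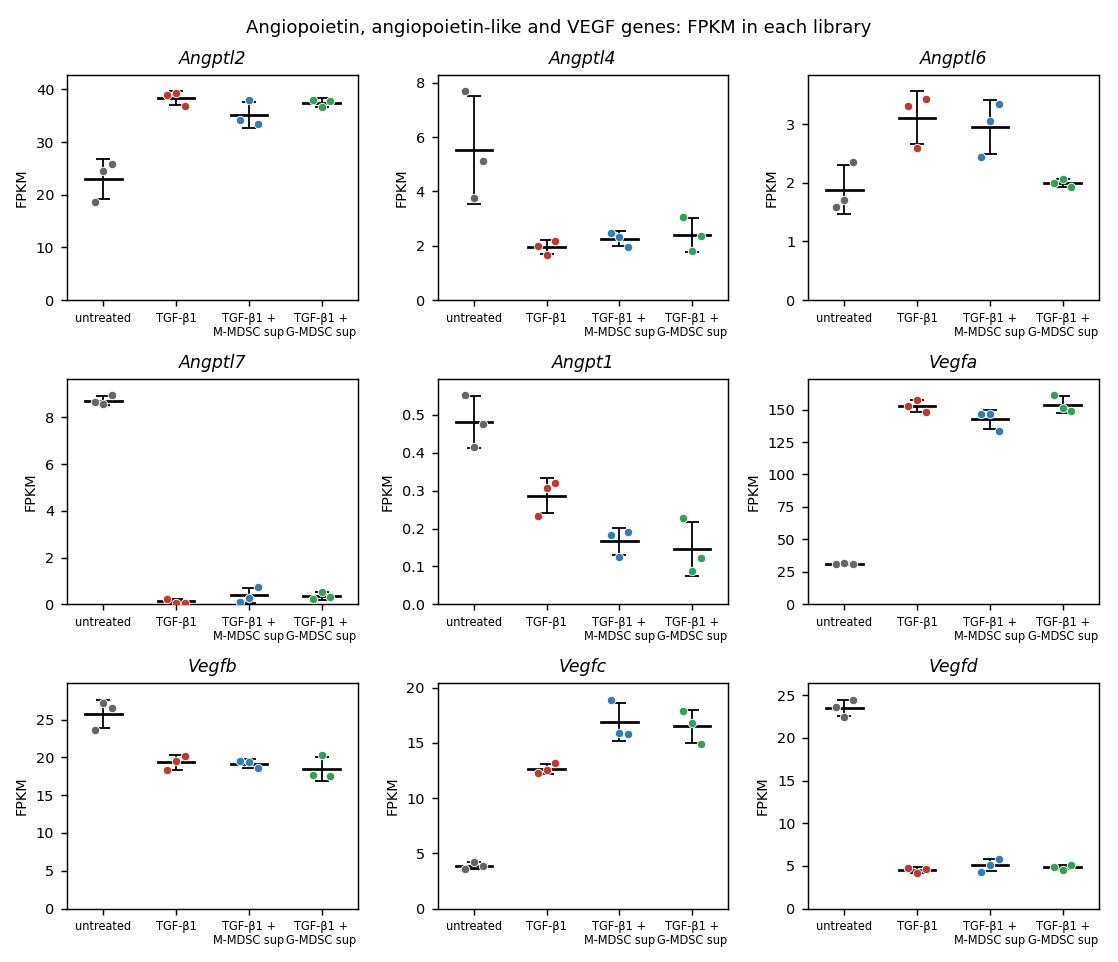
FPKM (y axis, from 0) of each of the 9 members in the 12 libraries, by group. Points are libraries, thick lines the group means and bars 1 SD. Angptl7 and Vegfd sit near the bottom in every group with TGF-β1, whereas Vegfa, Vegfc and Angptl2 sit above the untreated libraries.

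The make-up of the VEGF ligands differed between untreated and TGF-β1-treated MSCs. The FPKM of Vegfa, Vegfb, Vegfc and Vegfd summed to 84.4 ± 2.39 in untreated MSCs and 189 ± 3.78 with TGF-β1 (SD, n = 3). Vegfa made up 37.1% ± 0.803 of that sum in untreated MSCs and 80.7% ± 0.994 with TGF-β1. Vegfd, the lymphatic ligand on the X chromosome, went from 27.9% ± 1.49 to 2.39% ± 0.204, and Vegfb from 30.5% ± 1.40 to 10.2% ± 0.594. Vegfc, the other lymphatic ligand, was 4.61% ± 0.274 and 6.69% ± 0.338. With M-MDSC supernatant the shares were 77.6% ± 0.736 for Vegfa and 9.19% ± 0.733 for Vegfc, and with G-MDSC supernatant 79.4% ± 0.842 and 8.52% ± 0.456. Since the shares add up to the whole, a lower share of 1 ligand need not be a lower level of it. Fewer cells of a type and less RNA per cell cannot be told apart in such bulk libraries.

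Vegfa, the main inducer of blood vessel growth, had 30.8, 32.0 and 31 FPKM in untreated libraries 1 to 3. It had 153, 157 and 148 FPKM with TGF-β1, so the groups were far apart, at a difference of 2.35 on the log2 scale (SE 0.0497, 5.08-fold higher). Vegfa ranked 82 of 12016 genes from the largest rise. With M-MDSC supernatant it had 147, 147 and 134 FPKM and with G-MDSC supernatant 161, 152 and 149 FPKM. Every M-MDSC supernatant library lay below every library with TGF-β1 alone, by -0.12 on the log2 scale (SE 0.0473, unadjusted p = 0.0248), but the adjusted p of 0.207 in edgeR's quasi-likelihood test missed 0.05. With G-MDSC supernatant the difference from TGF-β1 alone was -0.02 (95% interval -0.12 to 0.09, adjusted p = 0.906). Between the supernatants Vegfa differed by -0.11 (unadjusted p = 0.0496, adjusted p = 0.788), with every M-MDSC library below every G-MDSC library.

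Vegfc, a growth factor for lymphatic vessels, was the only member that passed edgeR's test with a supernatant. It had 3.59, 4.22 and 3.87 FPKM in untreated libraries and 12.3, 12.5 and 13.2 FPKM with TGF-β1, a difference of 1.76 on the log2 scale (SE 0.0962, 3.38-fold higher). With M-MDSC supernatant it had 18.9, 15.9 and 15.8 FPKM and with G-MDSC supernatant 17.9, 16.8 and 14.9 FPKM. Every library with a supernatant was thus above every library with TGF-β1 alone. The 2 M-MDSC libraries with hepatocyte markers below 0.25 FPKM, libraries 1 and 2, had 18.9 and 15.9 FPKM of Vegfc. Their kidney tubule markers summed to 36.3 and 45.0 FPKM, against 4.22 to 4.39 FPKM with TGF-β1 alone. Against TGF-β1 alone Vegfc rose 1.31-fold with M-MDSC supernatant (log2 0.39, SE 0.0929, edgeR adjusted p = 0.0373). This call was lost without any 1 of the 6 libraries compared, with adjusted p from 0.0549 to 0.128 and log2 fold changes from 0.30 to 0.44. Over the 15 alternatives the adjusted p ran from 0.0024 to 0.128, and the direction was kept in each. With G-MDSC supernatant the log2 fold change was 0.36 (SE 0.0929, 95% interval 0.15 to 0.56), and the adjusted p was 0.0528 in edgeR, 0.0360 without G-MDSC library 3, 0.00732 in DESeq2 and at most 0.193 over the alternatives. The supernatants differed from each other by 0.04 in Vegfc (95% interval -0.17 to 0.24, adjusted p = 0.989). Both comparisons use the same 3 libraries with TGF-β1 alone.

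Vegfd, a close relative of Vegfc, lay the other way. It had 23.7, 22.5 and 24.4 FPKM in untreated MSCs and 4.74, 4.17 and 4.65 FPKM with TGF-β1, a difference of -2.32 on the log2 scale (SE 0.104, 5.00-fold lower) that ranked 122 of 12016 from the largest fall. With M-MDSC supernatant Vegfd had 4.33, 5.13 and 5.78 FPKM, and with G-MDSC supernatant 4.90, 4.56 and 5.1 FPKM. All 9 libraries with TGF-β1 were below all untreated libraries, and the supernatant groups overlapped the TGF-β1 group. The log2 difference from TGF-β1 alone was 0.15 with M-MDSC supernatant (95% interval -0.07 to 0.37, adjusted p = 0.508) and 0.08 with G-MDSC supernatant (-0.14 to 0.30, adjusted p = 0.788).

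Vegfb, a ligand of Flt1 linked to fatty acid uptake by vessels, had 23.6, 27.2 and 26.5 FPKM in untreated MSCs and 18.3, 19.5 and 20.2 FPKM with TGF-β1. This was the smallest difference among the members fitted, at -0.35 on the log2 scale (SE 0.0752, 1.28-fold lower). With the supernatants Vegfb ran from 17.5 to 20.4 FPKM and overlapped the TGF-β1 group, with log2 differences of -0.04 (95% interval -0.20 to 0.13) for M-MDSC and -0.09 (-0.26 to 0.07) for G-MDSC supernatant.

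Angptl7, a secreted protein known from the eye, where it is tied to the extracellular matrix of the outflow tissue, showed the greatest difference of the members with TGF-β1. It had 8.65, 8.57 and 8.94 FPKM in untreated MSCs, from 1593, 1725 and 1728 counts. With TGF-β1 it had 0.239, 0.0572 and 0.0774 FPKM, from 47, 12 and 15 counts. The difference was -6.04 on the log2 scale (SE 0.725, 65.7-fold lower), the 5th largest fall of 12016 genes, and it was -6.90 without TGF-β1 library 1 and -3.11 on the log2(FPKM + 1) scale. With M-MDSC supernatant Angptl7 had 0.113, 0.272 and 0.756 FPKM (21, 49 and 142 counts), and with G-MDSC supernatant 0.224, 0.529 and 0.314 FPKM (46, 101 and 61 counts). These levels stayed under 1 FPKM and overlapped the group with TGF-β1 alone. The log2 differences from TGF-β1 alone were 1.57 (SE 0.670) with M-MDSC and 1.46 (SE 0.670) with G-MDSC supernatant, given without a test because the TGF-β1 libraries chose this gene. Without TGF-β1 library 1 these were 2.44 and 2.33, and without M-MDSC library 3, the one with the hepatocyte markers, the former was 0.60. Between the supernatants Angptl7 differed by 0.11 (95% interval -1.26 to 1.48), and by -0.86 without that library. With all 6 of these libraries under 1 FPKM, the interval is too wide to show whether the supernatants differ.

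Angptl7 (ENSMUSG00000028989, chr4:148495183-148500460 on the minus strand, GRCm38) lies wholly within Mtor, the gene of a growth kinase on the plus strand, and shares no exon base with it. Mtor had 6.64 to 7.55 FPKM in untreated MSCs and 5.33 to 5.95 with TGF-β1, a log2 fold change of -0.28 (edgeR adjusted p = 0.00764). Its level was therefore much closer between the groups than that of Angptl7.

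Angptl4, an inhibitor of lipoprotein lipase that is a known target of PPAR and of hypoxia signalling, varied most relative to its mean among untreated libraries of the members, at 7.69, 3.76 and 5.13 FPKM. With TGF-β1 it had 2.0, 1.67 and 2.18 FPKM, with M-MDSC supernatant 2.49, 2.34 and 1.97 FPKM and with G-MDSC supernatant 3.06, 1.81 and 2.37 FPKM. All 9 libraries with TGF-β1 lay below the lowest untreated library, and those 3 groups overlapped each other. The difference between TGF-β1 and untreated MSCs was -1.44 on the log2 scale (SE 0.258, 2.71-fold lower). Against TGF-β1 alone the log2 difference was 0.19 with M-MDSC supernatant (95% interval -0.37 to 0.76, adjusted p = 0.779) and 0.28 with G-MDSC supernatant (-0.29 to 0.84, adjusted p = 0.674).

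Angptl2, a secreted protein that binds the integrin α5β1 and is linked to inflammation and fibrosis, had 18.7, 24.5 and 25.8 FPKM in untreated MSCs and 38.9, 39.3 and 36.8 FPKM with TGF-β1. The difference was 0.80 on the log2 scale (SE 0.102, 1.74-fold higher). Angptl2 made up 58.6% ± 6.62 of the summed FPKM of Angptl2, Angptl4, Angptl6 and Angptl7 in untreated MSCs and 88.1% ± 1.79 with TGF-β1, while the sum was 39.1 ± 2.86 and 43.5 ± 0.972 FPKM (SD, n = 3). With M-MDSC supernatant Angptl2 had 34.1, 38.0 and 33.4 FPKM and with G-MDSC supernatant 38.1, 36.6 and 37.9 FPKM, both overlapping TGF-β1 alone. The log2 differences were -0.15 (95% interval -0.37 to 0.08, adjusted p = 0.519) and -0.06 (-0.28 to 0.17, adjusted p = 0.851). Angptl2 lies within Ralgps1 on the other strand with no shared exon base, and Ralgps1 had 0.289 to 0.739 FPKM over the 12 libraries.

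Angptl6, a growth factor made mainly by the liver, was the member in which the supernatants lay furthest apart among those above 1 FPKM. It had 1.59, 1.70 and 2.36 FPKM in untreated MSCs and 3.31, 2.59 and 3.42 FPKM with TGF-β1 (log2 difference 0.78, SE 0.178). With M-MDSC supernatant it had 2.45, 3.05 and 3.35 FPKM, and with G-MDSC supernatant 2.0, 2.06 and 1.92 FPKM. The G-MDSC libraries lay below every TGF-β1 and M-MDSC library and within the range of untreated MSCs. Against TGF-β1 alone the log2 difference was -0.67 with G-MDSC supernatant (SE 0.178, 1.59-fold lower, unadjusted p = 0.00354), with an adjusted p of 0.0576 in edgeR and 0.0142 in DESeq2, and from 0.0142 to 0.182 over the alternatives. With M-MDSC supernatant it was -0.10 (95% interval -0.49 to 0.29, adjusted p = 0.844). The direct difference between M-MDSC and G-MDSC supernatant was 0.57 (SE 0.178, unadjusted p = 0.00921), and its adjusted p of 0.511 missed the threshold. The last exon of Angptl6 shares 265 bases with an exon of Shfl on the other strand, whose FPKM was 0.10 to 0.165 with TGF-β1 and 0.471 to 0.888 with either supernatant. Whether the counting used strand is not stated, so reads of this stretch cannot be assigned with certainty.

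Angpt1, the vessel-stabilising ligand of Tek, stayed under 1 FPKM in all libraries and was not tested. It had 0.551, 0.415 and 0.475 FPKM in untreated MSCs (202 to 246 counts) and 0.233, 0.306 and 0.319 FPKM with TGF-β1 (109 to 149 counts). With M-MDSC supernatant it had 0.183, 0.126 and 0.190 FPKM, and with G-MDSC supernatant 0.227, 0.0884 and 0.123 FPKM, from 41 to 112 counts over both. The untreated libraries were the highest, every library with a supernatant was below the lowest with TGF-β1 alone, and the supernatant groups overlapped. The first exon of Angpt1 also shares 737 bases with Gm17473 on the other strand.

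Among the 8 members fitted, 4 were higher and 4 lower with TGF-β1 than in untreated MSCs, with a median log2 fold change of 0.21, beside 0.00048 over all genes. In each of the 8 the libraries of both groups did not overlap, as in 46.7% of all genes, but since the members were chosen from this contrast the count is a description. With M-MDSC supernatant against TGF-β1 alone 1 of 7 members tested passed an adjusted p under 0.05, namely Vegfc, beside 4.78% of all genes, and 2 passed unadjusted, Vegfc and Vegfa. Groups did not overlap in Vegfc (higher) and Vegfa (lower), beside 24% of all genes. With G-MDSC supernatant none of 7 passed in edgeR, beside 5.56% of all genes, while Vegfc and Angptl6 passed unadjusted and these 2 also in DESeq2. Groups did not overlap in 2 of the 8 fitted, Vegfc (higher) and Angptl6 (lower), beside 22.7% of all genes. Between the supernatants 0 of 8 passed in edgeR and 0 in DESeq2, or 0 of 7 without Angptl7, which lay under 1 FPKM in all 6 libraries. This stood beside 0.125% of all genes in edgeR, and 2 passed unadjusted, Angptl6 and Vegfa. These 2 were also those whose groups did not overlap, beside 12% of all genes. The median log2 fold changes of the 8 members were 0.06, 0.03 and 0.05 in these 3 comparisons, against -0.013, -0.014 and 7.0e-05 over all genes. A count of 1 in 7 is too small to be set apart from the background share.

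**Figure D2:**
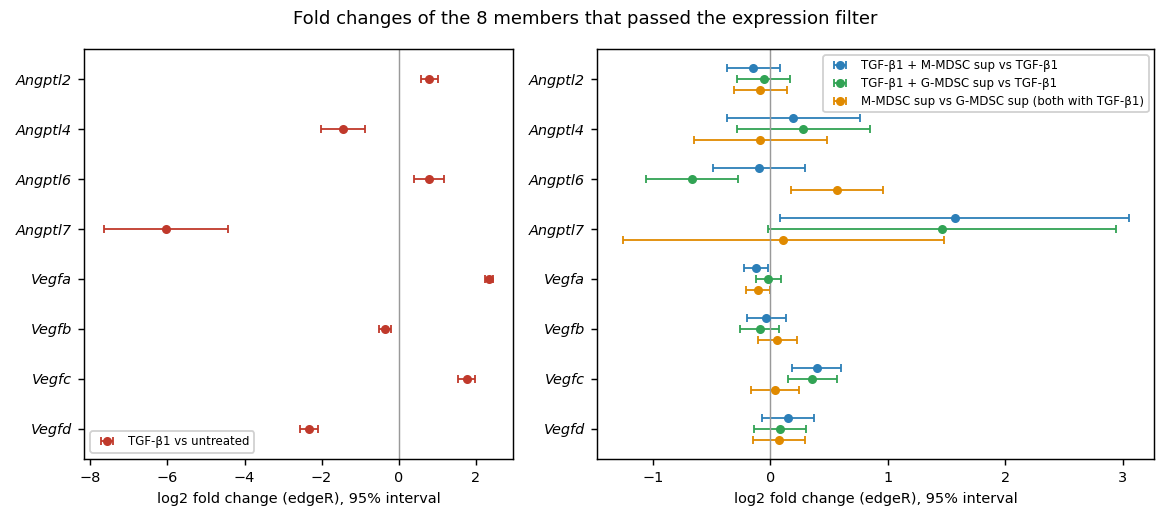
Log2 fold changes (x axis) of the 8 members fitted, with 95% intervals from edgeR. The left panel gives TGF-β1 against untreated MSCs and the right panel, on a narrower axis, the comparisons with supernatants. Angptl7 reaches -6.04 on the left and has the widest intervals, and Vegfc lies right of 0 with both supernatants.

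The other genes of these pathways were taken from 8 lists of 70 genes in all, of which 43 were tested. With TGF-β1 against untreated MSCs, 32 of the 43 passed the test, 16 up and 16 down, beside 34.0% of all genes. With M-MDSC supernatant 10 passed (6 up, 4 down), beside 4.78% of all genes, and 5 to 6 without any 1 of the 6 libraries compared. With G-MDSC supernatant 13 passed (8 up, 5 down), beside 5.56% of all genes. Between the supernatants 0 did in edgeR, beside 0.125% of all genes, and 0 in DESeq2, with 2 at an unadjusted p under 0.05.

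The receptors of the VEGF and angiopoietin ligands were nearly absent. Of the 8, only the neuropilin coreceptors Nrp1 and Nrp2 were tested. Flt1 ran from 0.0407 to 0.145 FPKM, Kdr from 0.0781 to 0.247 and Tek from 0 to 0.103 over the 12 libraries, and Flt4, Tie1 and Ptprb were also under 1 FPKM. The MSCs thus held the ligands' RNA with little of that of their kinase receptors. Nrp1 rose with TGF-β1 from 7.33 ± 0.662 to 8.99 ± 0.734 FPKM (SD, n = 3, log2 0.35, edgeR adjusted p = 0.0114). It fell with both supernatants, to 6.34 ± 0.124 FPKM with M-MDSC (log2 -0.53, adjusted p = 0.00675) and to 6.41 ± 0.709 FPKM with G-MDSC supernatant (log2 -0.51, adjusted p = 0.00671). Nrp2 rose with TGF-β1 by 0.27 (adjusted p = 0.0344), a call lost in 7 of 15 alternatives, among them leaving out untreated library 2 or 3 or TGF-β1 library 1 or 2, with an adjusted p of up to 0.130.

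Of the 6 other ligands only Angpt4, a second ligand of Tek, was tested, and it fell with TGF-β1 from 2.27 ± 0.151 to 1.19 ± 0.0711 FPKM (log2 -0.88, adjusted p = 0.00448). It was the most abundant angiopoietin by FPKM in every group. Pgf, the placental ligand of Flt1, ran from 0.185 to 0.345 FPKM, and Angpt2, which opposes Angpt1, stayed at or below 0.159 FPKM.

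**Figure D3:**
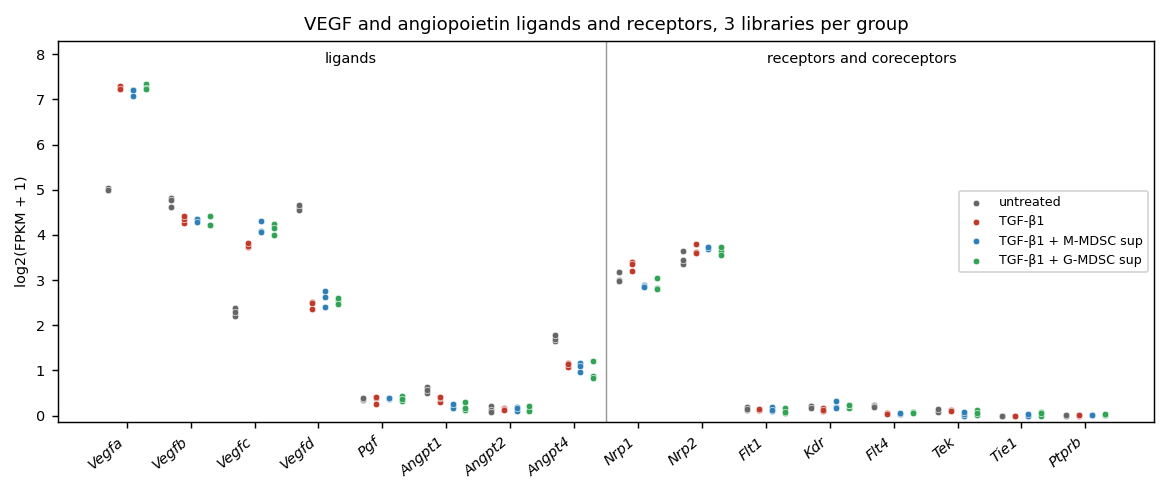
Levels of 8 ligands and 8 receptors or coreceptors as log2(FPKM + 1) on the y axis, with 3 libraries per group shown as points. Nrp1 and Nrp2 are the only receptors above 1 on this scale, and Vegfa is the highest ligand in each group.

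The lipase that Angptl4 inhibits was also lower with TGF-β1. Lpl, lipoprotein lipase, fell from 10.6 ± 0.134 to 3.07 ± 0.238 FPKM (SD, n = 3, log2 -1.73, SE 0.0782, adjusted p = 4.75e-08). It rose with M-MDSC supernatant to 4.38 ± 0.427 FPKM (log2 0.49, adjusted p = 0.00341) and with G-MDSC supernatant to 4.13 ± 0.225 FPKM (log2 0.40, adjusted p = 0.0103), without reaching untreated MSCs in any library. Of the 6 genes of the lipase system only Lpl and Sel1l, which helps lipase mature, were tested.

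Of the 10 PPAR genes 8 were tested, and 5 passed with TGF-β1, 1 up and 4 down. Pparg, the nuclear receptor of fat cell formation, fell from 5.70 ± 0.470 to 1.64 ± 0.0442 FPKM (log2 -1.74, adjusted p = 1.52e-07). The summed adipocyte markers were also lower with TGF-β1, at 0.0438 to 0.0735 FPKM against 0.249 to 0.415, and their part in the falls of Pparg and Lpl was not tested. Cpt1a, the carnitine transferase for fatty acid oxidation, fell by 0.90 on the log2 scale and Acadl, an acyl-CoA dehydrogenase, by 0.49. Plin2, the lipid droplet coat protein, rose 3.25-fold. With G-MDSC supernatant Cpt1a rose by 0.29 (adjusted p = 0.0065).

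**Figure D4:**
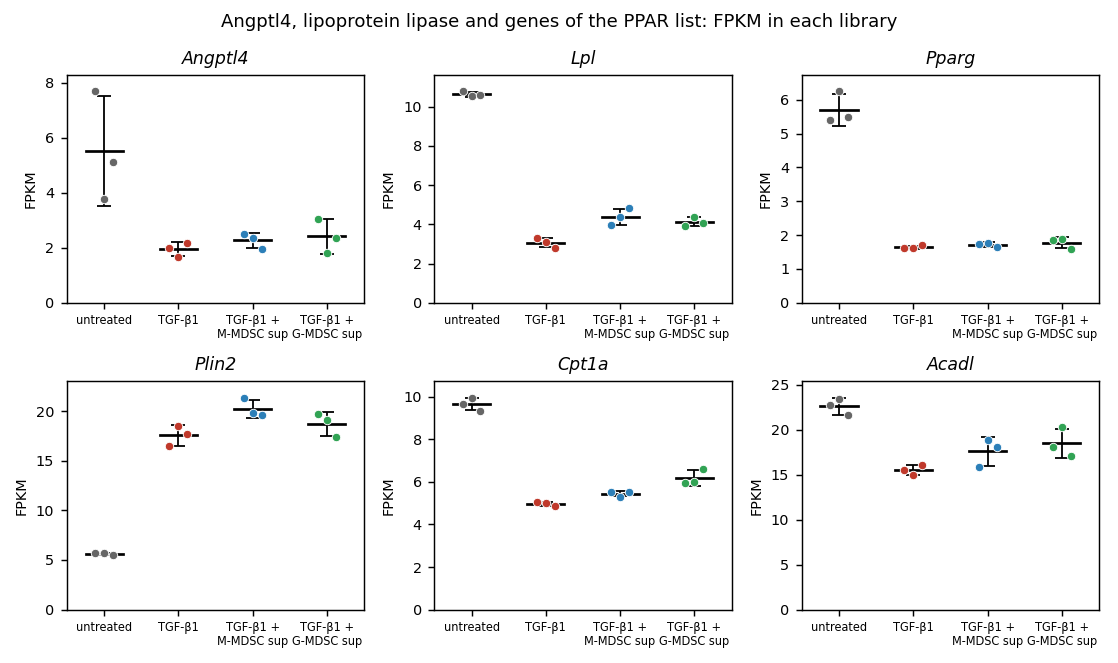
FPKM (y axis, from 0) of Angptl4, Lpl and 4 genes of the PPAR list in the 12 libraries. Points are libraries, thick lines means and bars 1 SD. Angptl4, Lpl, Pparg, Cpt1a and Acadl are highest in untreated MSCs, and Plin2 is lowest there.

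All 4 tested of the 6 Angptl receptors rose with TGF-β1. Itga5 and Itgb1, the chains of the integrin that binds Angptl2, rose from 45.0 ± 2.08 to 196 ± 10.1 FPKM (log2 2.18, adjusted p = 1.99e-09) and from 254 ± 8.61 to 385 ± 3.98 FPKM (log2 0.66, adjusted p = 8.39e-08). Itgav rose by 0.69 and Itgb3 by 0.57. None of the 4 passed with either supernatant in edgeR, although 2 had an unadjusted p under 0.05 with M-MDSC supernatant.

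Among 10 genes that control VEGF and vessel growth outside the cell, 8 were tested. With TGF-β1 7 passed, 4 up and 3 down. Ccn2, a matricellular protein and TGF-β target, rose by 2.53 on the log2 scale. Thbs2, a thrombospondin that inhibits vessel growth, fell from 375 ± 7.63 to 119 ± 14.8 FPKM (log2 -1.59, adjusted p = 8.54e-07), and Hpse, the heparanase that frees growth factors from heparan sulfate, fell by 1.70. Hpse reached an FPKM of 1 in 4 libraries, the untreated ones (1.67 to 2.06 FPKM) and 1 with G-MDSC supernatant (1.05 FPKM). It had 0.496 to 0.648 FPKM with TGF-β1, so the filter favoured a fall in this gene. Adamts1, a protease that binds Vegfa, fell by 0.94. With the supernatants Thbs2 rose to 212 ± 23.1 FPKM with M-MDSC (log2 0.81, adjusted p = 0.000912) and to 202 ± 22.2 FPKM with G-MDSC (log2 0.73, adjusted p = 0.00178). Thbs1, its relative, fell by 0.25 and 0.37, and Ccn1, another matricellular protein, by 0.24 and 0.33. Hpse rose by 0.64 and 0.67, with edgeR adjusted p of 0.0498 and 0.0354, near the threshold. With 1 library left out its log2 fold changes were 0.56 to 0.76 and 0.55 to 0.79. With M-MDSC supernatant the call of Hpse was lost without any 1 of the 6 libraries, and with G-MDSC supernatant without TGF-β1 library 1 or 3 or G-MDSC library 1 or 3. That of Thbs1 with M-MDSC supernatant was lost without TGF-β1 library 1 or 2 or any M-MDSC library, and that of Ccn1 without TGF-β1 library 3. Ccn2 fell by 0.28 with G-MDSC supernatant (adjusted p = 0.00997).

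Of the 18 hypoxia genes 13 were tested, and 10 passed with TGF-β1, 4 up and 6 down. Hif1a, the oxygen-regulated subunit of the factor that drives Vegfa and Angptl4 in low oxygen, had 41.1 ± 3.29 FPKM in untreated MSCs and 36.4 ± 2.16 with TGF-β1 (log2 -0.12, adjusted p = 0.207). Its targets did not move as a block. Ddit4, a stress-induced inhibitor of mTOR signalling, rose by 1.48 and Ndrg1 by 0.83, whereas Pdk1, which limits entry of pyruvate into mitochondria, fell by 1.21 and Bnip3, a mitophagy receptor, by 0.97. With M-MDSC supernatant Bnip3 rose by 0.46 and the lactate dehydrogenase gene Ldha by 0.21, and Ndrg1 fell by 0.20. With G-MDSC supernatant Bnip3 rose by 0.54, Ldha by 0.27 and Hif1a by 0.29 (adjusted p = 0.0277), and Ndrg1 fell by 0.21. The call of Bnip3 with M-MDSC supernatant and both calls of Ndrg1 were lost without any 1 of the 6 libraries compared. That of Ldha with M-MDSC supernatant was lost without TGF-β1 library 1 or 2 or M-MDSC library 1 or 3, and that of Hif1a without TGF-β1 library 2 or 3 or G-MDSC library 2 or 3. Angptl4 is also known as a glucocorticoid target, and of 6 other genes of that response 5 were tested. Per1, a clock gene, fell by 0.81 with TGF-β1 and Tsc22d3, a glucocorticoid-induced leucine zipper gene, rose by 0.78, a call lost without untreated library 1. No gene of this list passed with a supernatant in edgeR.

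Genes whose levels ran most alike to a member were named by Pearson's r of log2(FPKM + 1) over the 12 libraries, as a description dominated by the step between untreated and TGF-β1-treated libraries. Errfi1 (r = 0.997), Efemp1 (0.997) and Gstt1 (0.997) were closest to Angptl7. Errfi1, an inhibitor of EGF receptor signalling, had 99.6 FPKM in untreated MSCs and 42.0 with TGF-β1, and Efemp1, a fibulin of the extracellular matrix, had 15.4 and 1.33. Tex2 (0.958), Mocos (0.953) and Fanci (0.953) were closest to Angptl4. Col5a3 (0.999), Jag1 (0.999) and Adam12 (0.998) were closest to Vegfa. Col5a3, a collagen chain, had 0.400 FPKM in untreated MSCs and 31.1 with TGF-β1, and the Notch ligand Jag1 had 1.14 and 25.2.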

How the data were processed

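Poly(A) mRNA of 12 libraries, 3 per group, was sequenced by the authors. Per the study's methods, fastp was used for read quality, HISAT2 for alignment to GRCm38 and StringTie for transcript assembly. The submitters' processing notes list cutadapt 1.9, HISAT2 2.0.4 and StringTie 1.3.4d. The deposited table holds raw counts per gene, and the tool that counted them, and its strand setting, are not given in the sources used here. It also holds FPKM values calculated by the authors, whose small constant for genes without reads was set to 0 here. Columns were matched to samples by title. The library kit marks strand.

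Counts were tested in edgeR 4.0.16 (R 4.3.3) with the quasi-likelihood test, TMM factors and 1 fit of the 4 groups, for genes that reached an FPKM of 1 in 3 or more libraries, with Benjamini-Hochberg adjustment over all 12016 genes at a threshold of 0.05. The steps were tested on simulated data. Alternatives were RLE factors, no filter, filterByExpr, counts divided by 4, a block for the replicate number, a fit of only the groups compared, DESeq2 1.42.0, limma 3.58.1 on log2(FPKM + 1) and log2(FPKM + 0.1), the fold rule of the study, and leaving out each library. A pseudocount understates the change of low genes. The members and lists were chosen with earlier results of these data known. All members were named. From the lists Flt1, Kdr, Tek, Nrp1, Nrp2, Pgf, Lpl, Hif1a and Pparg were named, and up to 4 called genes with the largest fold change per list and comparison. The 3 genes most alike to Angptl7, Angptl4 and Vegfa were also named. Genes overlapping a member, the other receptors, Angpt2 and Sel1l were named beside them after their values were seen. Some list genes are counted but not reported here by name. Gene positions are those of the deposited table and GENCODE M21, and promoters those of RefSeq. Intervals are 95% intervals of the fit, and the total counts per library limit low genes most.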

Additional observations from a re-analysis of the deposited data

How the results depend on the processing

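The count of members passing the test with M-MDSC supernatant, 1 (Vegfc), was 0 with no filter, with the replicate block, with only the groups compared and under the study's rule (fold over 2 or under 0.5, unadjusted p under 0.05), and 0 without any 1 of the libraries compared. With G-MDSC supernatant it was 0, and 1 with RLE factors, 2 with DESeq2, 1 with limma on log2(FPKM + 1), 1 on log2(FPKM + 0.1), and 0 to 1 when libraries were left out (1 without library 3 of that group). Under the study's rule the pathway counts were 9 in place of 32 with TGF-β1, 1 in place of 10 with M-MDSC and 1 in place of 13 with G-MDSC supernatant, and 1 in place of 0 between the supernatants. Leaving out libraries gave 5 to 6 in place of 10. That rule asks for a larger fold, and the cause of the other shifts was not tested. The replicate numbers did not pair the libraries: 18 same-number pairs had a mean residual correlation of -0.0038 with 0 over 0.1, other pairs 0.0020, and 2 of 12 libraries were closest to their own number. With the block Vegfc had an adjusted p of 0.0768. The block moved no other count of members or pathway genes by over 1.5 times. For differences with a test, a value counted as the same where it kept its direction and side of the threshold. For those given without a test, it also had to keep its direction. It counted as the same where it shifted by less than the SD within groups, and as moved where the shift was larger. Of 480 alternative values for members 441 were the same, 10 moved, 6 gained and 9 lost the call, and 14 changed sign, all in differences that passed no test. With M-MDSC supernatant these were Angptl6 (-0.21 to 0.016) and Vegfb (-0.075 to 0.014) when libraries were left out. With G-MDSC supernatant they were Vegfa with limma on log2(FPKM + 1) (0.0070) and on log2(FPKM + 0.1) (0.0070) and without 1 library (-0.054 to 0.0046). Between the supernatants they were Angptl4 (-0.26 to 0.12), Vegfc (-0.054 to 0.098), Vegfd (-0.033 to 0.17) and Angptl7 (-0.86 to 0.54) when libraries were left out, and Angptl7 on log2(FPKM + 0.1) (-0.11). Of 660 values of named pathway genes 77 lost the call. Over all genes, 1929 of 4082 calls with TGF-β1 were higher, against 1477 of 4202 with limma on log2(FPKM + 1), and with G-MDSC supernatant 372 of 668 against 458 of 674. Members below 1 FPKM, Angptl7 with TGF-β1 and Angpt1, rest on 12 to 149 counts in the libraries with TGF-β1, which limits their fold changes most.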
